A study of Mus musculus with 10 samples.

Results

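Purkinje cells (PCs), the output neurons of the cerebellar cortex, form parasagittal stripes that differ in the genes they express, and 7 genes that mark these stripes were followed here among the 55536 mouse genes counted. They were taken by name from what is known of the stripes. Aldoc, Plcb3, Slc1a6 and Hspb1 mark zebrin-positive PCs (4 genes), and Plcb4, Ebf1 and Ebf2 mark zebrin-negative PCs (3 genes). RNA came from whole cerebellum and whole cerebral cortex of 1-year-old mice, 3 controls and 2 Snx14-KO mice, and each mouse gave both tissues. Controls 1 and 2 were Het for Snx14 and control 3 was WT. KO 1 and KO 2 carried, in every cell of the body, a frameshift deletion in both copies of Snx14, which encodes an endoplasmic reticulum protein involved in lipid handling. The allele was made with Cas9 in C57BL/6J embryos. The 2 KO mice are the whole KO group, so p-values of KO against control within a tissue measure the spread among 5 mice. Tests across tissues took each library as a unit unless said, though each mouse gave both tissues. They rest on 3 control mice or on all 5 mice.

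Zebrin II is the protein aldolase C, and the stripes take their name from the antibody against it. Zebrin-positive and zebrin-negative PCs alternate across the cerebellum, with positive cells prevailing in posterior lobules and negative cells in anterior ones. Both kinds receive glutamate from parallel and climbing fibres. They signal through a metabotropic receptor and a phospholipase C, which is mainly PLCβ3 in positive and PLCβ4 in negative cells. The stripes are laid down around birth and keep their pattern in the adult. None of the 7 genes is made by PCs alone, and the counts of bulk tissue do not say in which cell, or in which stripe, an RNA lay.

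Library totals ran from 16088310 to 22975355 gene counts. Snx14 itself had 44.3, 41.5 and 76.1 CPM (counts-per-million, scaled to the size of the library) in control cerebellum against 16.0 and 18.0 in KO cerebellum (log2 change -1.66, adjusted p = 0.0140). In cortex it had 33.1 to 48.8 CPM in controls against 14.5 and 15.5, and its adjusted p there was not under 0.05. As the tissue labels say, 8 granule cell genes together reached 4216 to 5009 CPM in every cerebellum and only 102 to 134 CPM in every cortex. Some libraries stood apart in what the dissection held. In KO 1 cerebellum 6 choroid plexus genes summed to 49.8 CPM, against 1241 to 3524 in the other 4 cerebella. In control 2 cortex 9 striatum genes summed to 4234 CPM and 7 cortical excitatory neuron genes to 2946 CPM, against 573 to 1905 and 4990 to 5635 in the other 4 cortices. Values without KO 1 are given for the stripe genes in cerebellum, and without control 2 in cortex, where the change differs by over 1.5 times or the call is lost.

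In control cerebellum Aldoc was by far the most abundant of the 7 genes per unit of transcript length, and Ebf2 the least. Aldoc had 712 ± 58.3 CPM per kilobase (SD, n = 3), Slc1a6 had 90.9 ± 5.86, Plcb4 had 41.9 ± 2.23 and Plcb3 had 11.1 ± 1.27. Ebf1 (7.77 ± 0.130) and Hspb1 (7.10 ± 2.77) followed, and their ranges overlapped. Ebf2 came last with 1.37 ± 0.258 CPM per kilobase. Other neighbours in this order did not overlap between control libraries. In control cortex, which has no PCs, the order was Aldoc (264 ± 22.6), Plcb4 (7.65 ± 1.48), Hspb1 (2.96 ± 1.38), Slc1a6 (2.83 ± 0.447), Plcb3 (2.36 ± 0.322), Ebf1 (0.670 ± 0.233) and Ebf2 (0.102 ± 0.129). There Hspb1 overlapped with Slc1a6, and Slc1a6 with Plcb3.

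All 7 genes were called higher in cerebellum than in cortex of the control mice, where 19.1% of all genes tested were called higher and 21.5% lower. A call meant an adjusted p under 0.05 and a log2 difference over 0.5. The libraries of the 3 control mice were taken as separate units, and with the mouse as a block all 7 genes were called too. The difference was largest for Slc1a6, with a log2 difference of 4.90 (SE 0.129, adjusted p = 3.4e-08), followed by Ebf2 (3.67, SE 0.596) and Ebf1 (3.41, SE 0.195). It was 2.34 for Plcb4 (SE 0.142) and 2.12 for Plcb3 (SE 0.128). Aldoc and Hspb1, which astrocytes and vascular cells are known to express, had the smallest differences, 1.32 (SE 0.108) and 1.15 (SE 0.381). For Hspb1 the CPM of the tissues overlapped, and without control 3 it was no longer called (0.67, adjusted p = 0.274).

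In KO cerebellum 2 of the 7 genes were called lower and 0 higher, against 1.04% of all genes called lower and 0.514% called higher. These were Slc1a6 of the zebrin-positive set and Ebf2 of the zebrin-negative set, so each set held 1 call. At an unadjusted p under 0.05, 5 of the 7 passed edgeR's test, all with lower values in KO, against 13.4% of all genes in either direction. DESeq2 called the same 2 of the 7 among its 428 calls. Both KO libraries lay below all 3 controls for 5 genes, Plcb3, Slc1a6, Plcb4, Ebf1 and Ebf2. Groups did not overlap in either direction for 30.2% of all genes. In bulk tissue, fewer cells of a type and less RNA per cell cannot be told apart.

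**Figure D1:**
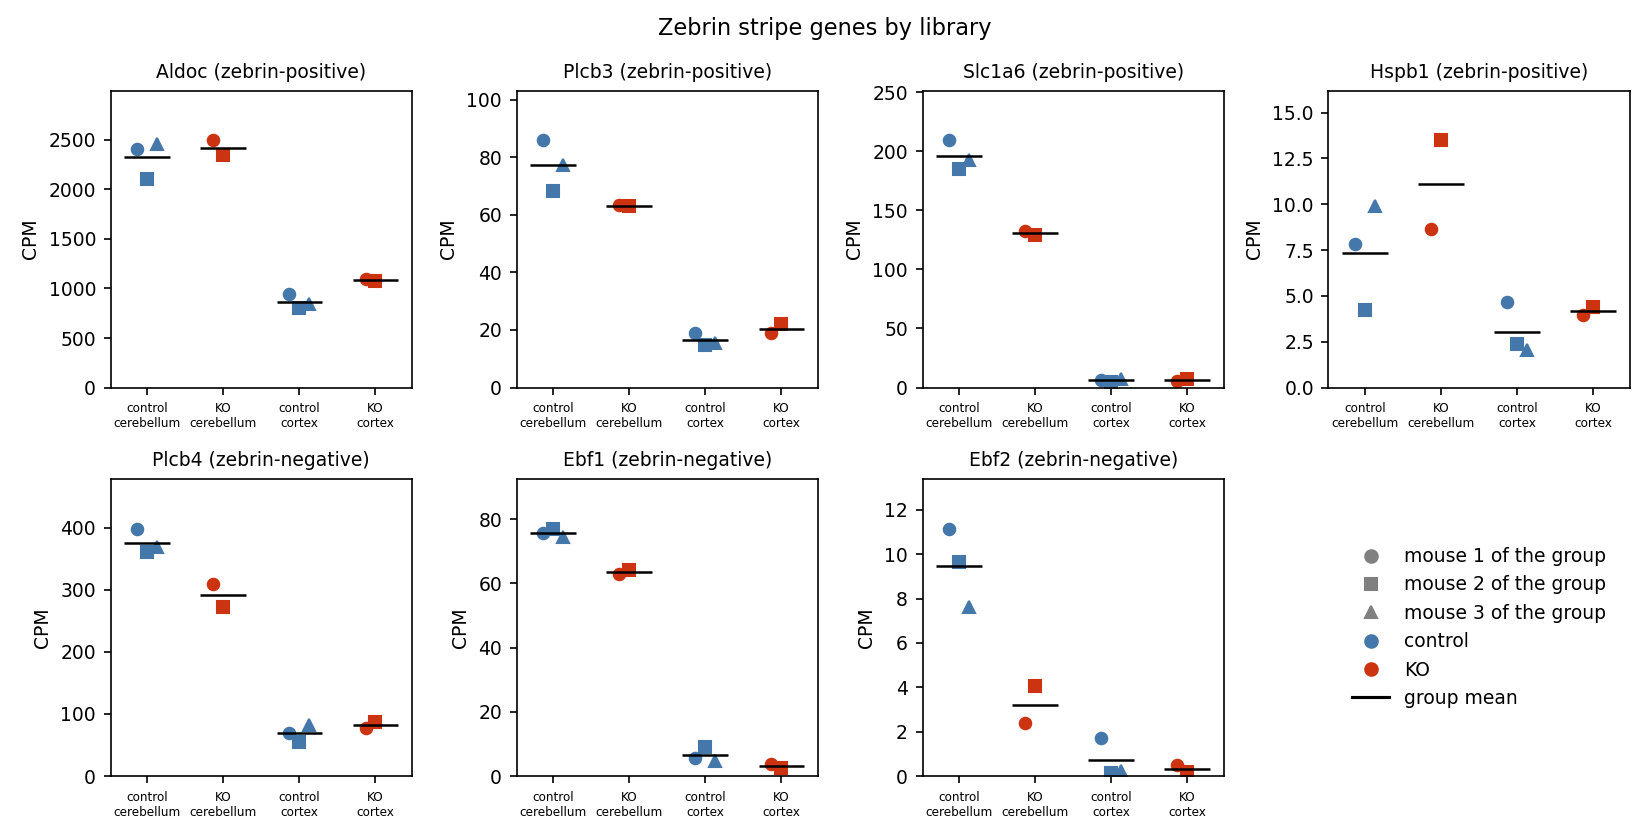
CPM (vertical axis, from 0, scaled within a tissue) of the 7 genes in each of the 10 libraries, with blue points for controls, red points for KO, the point shape for the mouse and a black line for the group mean. In cerebellum the red points lie below all blue points for Plcb3, Slc1a6, Plcb4, Ebf1 and Ebf2, and overlap them for Aldoc and Hspb1.

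Slc1a6 (ENSMUSG00000005357, chr10:78780496-78814765, plus strand, GRCm38) encodes EAAT4, the glutamate transporter of PC dendrites and spines, which clears glutamate around the synapse. It had 209.5, 185 and 192 CPM in control cerebellum and 133 and 129 CPM in KO cerebellum. Both KO libraries lay well below the lowest control and close to each other. The log2 change was -0.58 (SE 0.0713, adjusted p = 0.00582), which left 66.8% of the control mean. This call held with each library left out in turn, with adjusted p from 0.00206 to 0.0429.

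The 250 bases upstream of the Slc1a6 start are printed because they hold the only match among these genes to the core of the motif that EBF factors bind, the family of Ebf1 and Ebf2. The sequence is from RefSeq on GRCm38.p6, chr10:78780246-78780495, plus strand, with the match in capitals.
Slc1a6: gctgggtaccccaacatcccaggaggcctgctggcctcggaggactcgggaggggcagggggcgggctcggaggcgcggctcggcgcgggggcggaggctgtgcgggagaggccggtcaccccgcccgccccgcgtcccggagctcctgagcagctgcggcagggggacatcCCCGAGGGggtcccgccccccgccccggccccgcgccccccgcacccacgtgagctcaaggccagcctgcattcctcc
The motif searched was CCCNNGGG on both strands, which is its own reverse complement. It begins 78 bases before the start (position -78). The RefSeq table gave 9 such windows for 6 of the 7 genes, and 1 of the 9 held the motif, as did 11.8% of 32851 windows of the same length over all genes. A match of 8 letters is a description of the sequence and not a binding site.

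Plcb3 (ENSMUSG00000024960, chr19:6952325-6976470, minus strand) encodes the phospholipase C that couples receptors to calcium release in zebrin-positive PCs. It had 85.9, 68.3 and 77.2 CPM in controls and 63.2 and 62.9 CPM in KO cerebellum. The KO values were nearly the same and lay under the lowest control, that of control 2. The log2 change of -0.29 (SE 0.0958) missed the threshold, with adjusted p = 0.222. Without control 2 the adjusted p was 0.0391 with a log2 change of -0.37, which is still under the size that a call needs. The change was -0.21 without control 1 (adjusted p = 0.501) and -0.29 without control 3 (adjusted p = 0.43).

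Aldoc (ENSMUSG00000017390, chr11:78322968-78327781, plus strand), the glycolytic enzyme that defines zebrin II, had 2410, 2104 and 2453 CPM in control cerebellum and 2498 and 2343 CPM in KO cerebellum. The groups overlapped, and KO stood at 104% of the control mean. The log2 change was 0.06 (SE 0.106, adjusted p = 0.885), -0.007 without control 2 and 0.02 without KO 1. Astrocytes and Bergmann glia, the radial astrocytes of the PC layer, also make aldolase C, and part of their genes differed in KO cerebellum. Of 10 astrocyte genes 5 were called higher and 0 lower, and their summed CPM were 5165 to 5512 in controls and 6608 and 6780 in KO, with 0 of the 10 genes at 0 counts. The most abundant of them were Slc1a3, a glutamate transporter, with 1474 ± 116 CPM in controls (SD, n = 3) and 1094 ± 61.1 in KO (SD, n = 2), Glul, glutamine synthetase, with 993 ± 69.5 and 1692 ± 8.25, and Slc1a2, another glutamate transporter, with 730 ± 29.1 and 960 ± 9.54. Of these 3 only Glul was called (log2 change 0.77, SE 0.0926, adjusted p = 0.00526).

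Of 6 genes on the Bergmann glia list, which shares Slc1a3 with the astrocyte list, 1 was called lower, Hopx (log2 change -0.60, adjusted p = 0.00723), and their summed CPM were 2712 to 2955 in controls and 2193 and 2321 in KO. The ratio of Aldoc to Slc1a3 was 1.57, 1.57 and 1.59 in controls and 2.20 and 2.23 in KO. Slc1a3 is among the 2 of 10 astrocyte genes that were lower in KO, while 8 were higher, Glul and Slc1a2 among them. Relative to Glul or to Slc1a2, Aldoc was lower in KO, so the direction depends on the glial gene chosen. Aldoc thus overlapped between the groups in libraries whose summed astrocyte genes were higher, and summed Bergmann glia genes lower, than in controls. Aldoc held the same rank as the summed astrocyte genes in 2 of 5 cerebellum libraries, and as the summed Bergmann glia genes in 0 of 5. The part of glial cells in the Aldoc level was not tested.

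Hspb1 (ENSMUSG00000004951, chr5:135887919-135889563, plus strand) encodes the small heat shock protein HSP25, which marks PCs of a narrower set of lobules and is also made by vascular cells. It had 7.83, 4.23 and 9.88 CPM in controls and 8.65 and 13.5 CPM in KO cerebellum, from counts of 88 to 315. The groups overlapped, with control 2 lowest and KO 2 highest. The log2 change was 0.61 (SE 0.324, adjusted p = 0.492). With each library left out in turn it ran from 0.24 (without KO 2) to 0.89 (without KO 1), with 0.33 without control 2 and 0.88 without control 3, and none of these was a call. The 6 fibroblast genes had summed CPM of 250.1, 93.0 and 197 in controls and 195 and 307 in KO. The 7 endothelial genes summed to 96.4 to 111 CPM in controls and 114 and 124 in KO, and the 7 pericyte and mural genes to 130.1 to 139 and 158 and 181. The fibroblast list had 0 genes called of 6, the endothelial list 0 of 7, and the mural list 1 of 7, Vtn, with 52.2 CPM in controls and 81.7 in KO. By DESeq2 1 fibroblast gene, Col1a1, was called, and 3, 0 and 2 genes of the 3 lists had an unadjusted p under 0.05. Hspb1 and the summed list held the same rank in 2 of 5 libraries for fibroblast, 1 of 5 for endothelial and 3 of 5 for mural genes. The part of these cells in the Hspb1 level was not tested.

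The window upstream of the Hspb1 start is shown for its heat shock sequence. The letters searched were GAANNTTC, a pair of inverted heat shock units, which read the same on both strands. The sequence is from RefSeq on GRCm38.p6, chr5:135887669-135887918, plus strand, with the matches in capitals.
Hspb1: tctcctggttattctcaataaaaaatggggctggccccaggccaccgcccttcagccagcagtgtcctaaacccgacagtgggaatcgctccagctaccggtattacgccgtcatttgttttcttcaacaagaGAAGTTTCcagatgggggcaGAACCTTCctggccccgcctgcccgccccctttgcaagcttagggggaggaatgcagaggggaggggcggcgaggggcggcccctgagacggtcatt
The matches begin 117 and 97 bases before the start (positions -117 and -97). Hspb1 was the only one of the 6 genes with a window to hold this motif, which was in 6.69% of all windows. Of 9 heat shock response genes 0 were called in KO cerebellum by edgeR or by DESeq2, with 2 at an unadjusted p under 0.05, Bag3 and Cryab. Their median log2 change was 0.20, against 0.001 for all genes tested. The most abundant were the chaperones Hspa8 (log2 change -0.02, SE 0.1000), Hsp90aa1 (-0.09, SE 0.0844) and Hsph1 (-0.02, SE 0.102).

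Plcb4 (ENSMUSG00000039943, chr2:135659011-136014593, plus strand), the phospholipase C of zebrin-negative PCs, had 399, 361 and 369 CPM in control cerebellum and 309 and 273 CPM in KO cerebellum. Both KO libraries lay below all controls, at 77.4% of the control mean. The log2 change was -0.37 (SE 0.0846). With adjusted p = 0.0744 it missed the threshold in edgeR. DESeq2 gave adjusted p = 0.00116 and the same size, under the 0.5 that a call needs. Without control 2 the adjusted p in edgeR was 0.0385, while it was 0.276 without control 1 and 0.212 without control 3. The log2 change was -0.28 without KO 2 and -0.46 without KO 1.

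Ebf1 (ENSMUSG00000057098, chr11:44617317-45008091, plus strand) encodes a helix-loop-helix transcription factor of developing and adult neurons, of B cells and of mural cells. It had 75.7, 77.1 and 74.6 CPM in controls and 62.9 and 64.0 CPM in KO cerebellum. These groups were tight and did not overlap, and KO stood at 83.7% of the control mean. The log2 change was -0.26 (SE 0.0612, adjusted p = 0.0860), which is not a call. Ebf1 and the summed mural genes held the same rank in 1 of 5 cerebellum libraries.

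Ebf2 (ENSMUSG00000022053, chr14:67233292-67430918, plus strand) encodes a related factor that is known to restrain the zebrin-positive programme in zebrin-negative PCs. It had 11.2, 9.67 and 7.61 CPM in control cerebellum (231, 201 and 144 counts) and 2.38 and 4.07 CPM in KO cerebellum (42 and 95 counts). The KO libraries lay below all controls and differed from each other more than those of Slc1a6 did. The log2 change was -1.54 (SE 0.262, adjusted p = 0.0219), which left 34.0% of the control mean. The call was lost without control 1 (adjusted p = 0.117, log2 change -1.41) and without KO 1 (adjusted p = 0.0958, log2 change -1.22), the library with few choroid plexus reads. The part of choroid plexus in the Ebf2 level was not tested. Of the Ebf2 exonic bases 6.12% lie also in Gm10860, whose counts were 23 to 42 in controls and 9 and 15 in KO. A read pair in both was counted for both.

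The stripe genes were compared with 10 genes that all PCs express, as a rough measure of the PC share of the RNA. This list was chosen with earlier results of these data known, and the study had reported Car8 and Rgs8, among others, as lower at this age. Of the 10 genes 9 were called higher in cerebellum than in cortex of control mice. The exception was Kcnab1, which stood at 51.2% of its control mean in KO cortex as well. Each of the 10 genes was called lower in KO cerebellum, with a median log2 change of -1.12 against 0.001 for all genes tested. Their summed CPM were 11200, 9246 and 11100 in controls and 4754 and 4710 in KO, which is 0.45 of the control mean. The most abundant were Itpr1, the calcium release channel of PCs, at 44.8% of its control mean, Car8, a protein that binds this channel, at 39.4%, and Rgs8, a regulator of G-protein signalling, at 42.6%. The 10 genes ranged from 39.4% to 62.7%. Of the 7 stripe genes 6 stood higher than that range. The Ebf2 mean of 34.0% was lower, but rests on KO 1 at 25.1%, the library with few choroid plexus reads. KO 2 at 43.0% lay inside the range, and the part of choroid plexus in the Ebf2 level was not tested.

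**Figure D2:**
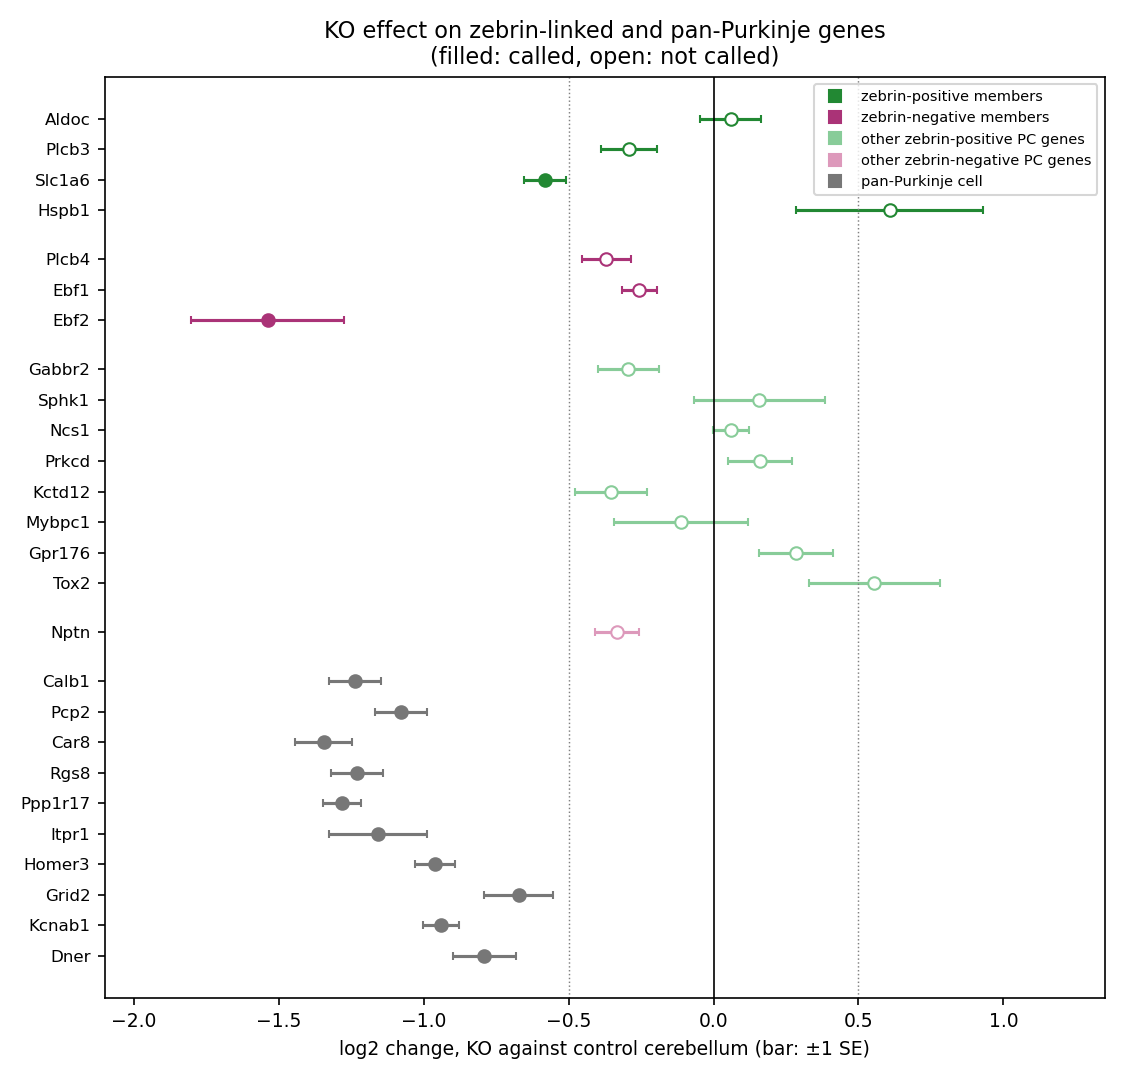
Log2 change of each gene in KO against control cerebellum (horizontal axis, bars of 1 SE either way) for the 7 stripe genes, 9 further zebrin-linked genes and 10 pan-Purkinje genes, with filled points for called genes and dotted lines at the log2 change of 0.5 that a call needs. All 10 pan-Purkinje genes are filled and lie left of -0.5, while of the stripe genes only Slc1a6 and Ebf2 are filled.

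Dividing each gene by the summed CPM of the pan-Purkinje genes puts the stripe genes on the scale of that RNA. Aldoc was 21.5%, 22.8% and 22.1% of that sum in controls and 52.5% and 49.7% in KO. Slc1a6 was 1.87%, 2.00% and 1.73% in controls and 2.79% and 2.73% in KO. Plcb4 was 3.56%, 3.90% and 3.32% in controls and 6.50% and 5.79% in KO. The KO libraries lay above all controls for these 3 genes and for Plcb3, Hspb1 and Ebf1. Ebf2 was 0.0997%, 0.105% and 0.0685% in controls and 0.04996% and 0.0864% in KO, which overlapped. The KO mean over the control mean was 2.31 for Aldoc, 1.82 for Plcb3, 1.48 for Slc1a6, 3.43 for Hspb1, 1.71 for Plcb4, 1.84 for Ebf1 and 0.75 for Ebf2. These values are a description with no test, and RNA of the same genes from other cells is in them.

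Ratios of a zebrin-positive to a zebrin-negative gene within a library do not depend on its depth or scaling. Plcb3 to Plcb4, the pair of phospholipases that divide the stripes between them, was 0.216, 0.189 and 0.209 in controls and 0.205 and 0.231 in KO, which overlapped. Slc1a6 to Plcb4 was 0.526, 0.513 and 0.522 in controls and 0.430 and 0.472 in KO, so both KO libraries were lower. Slc1a6 to Ebf2 was 18.8, 19.1 and 25.3 in controls and 55.9 and 31.6 in KO, so both were higher. Aldoc to Plcb4 was 6.05, 5.83 and 6.65 in controls and 8.08 and 8.59 in KO. The 4 ratios thus did not share a direction, and the sign depended on which genes were paired.

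**Figure D3:**
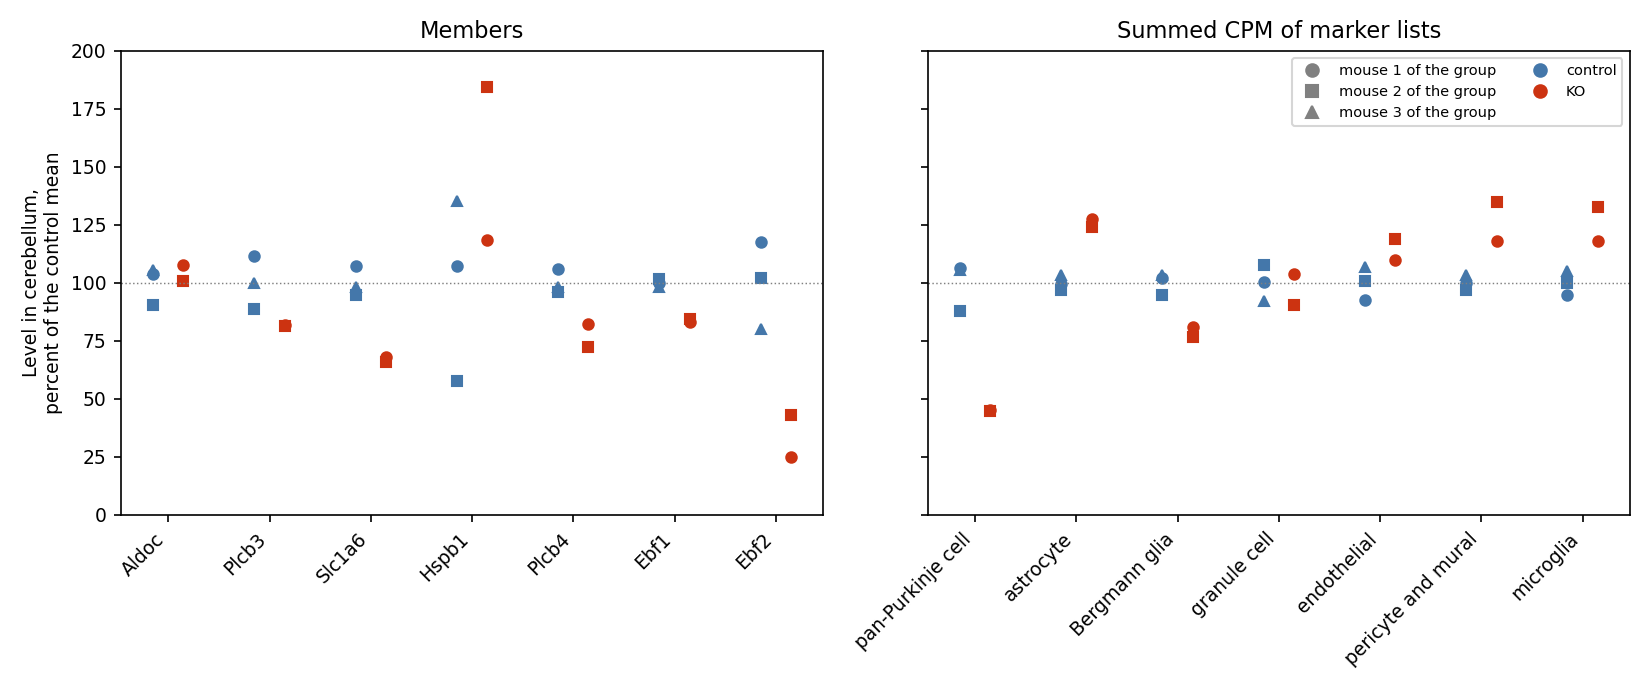
Level in each cerebellum library as a percent of the control mean (vertical axis, from 0) for the 7 stripe genes on the left and the summed CPM of 7 marker lists on the right, with blue points for controls and red points for KO. The pan-Purkinje list stands at 0.45 of the control mean in both KO libraries, Slc1a6 at 66.8% and Ebf2 at the lowest level of the 7 genes.

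Other genes reported to follow the zebrin pattern were read from fixed lists. Of 8 further zebrin-positive genes 0 were called in KO cerebellum by edgeR or DESeq2, with a median log2 change of 0.11. In edgeR 3 had an unadjusted p under 0.05 (Gabbr2, Kctd12 and Tox2). In control mice only 4 of the 8 were called higher in cerebellum than in cortex, and 2 were called lower. The part of cells other than PCs in their levels was not tested. Both KO libraries lay below the controls for Gabbr2, a GABA-B receptor subunit (306 ± 35.6 CPM in controls, 249.9 ± 17.0 in KO), and for Kctd12, an auxiliary subunit of that receptor (296 ± 47.5 and 231 ± 1.76). Log2 changes were 0.06 for Ncs1, a calcium sensor, 0.16 for Prkcd, a protein kinase C, 0.16 for Sphk1, a sphingosine kinase, -0.11 for Mybpc1, 0.28 for Gpr176 and 0.56 for Tox2, and none of them was called.

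Of the further zebrin-negative genes only Nptn, a cell adhesion protein of many neurons, is reported here, and it does not stand for that list. Nptn had 618, 621 and 585 CPM in controls and 485 and 481 in KO. Both KO libraries lay below all controls, with a log2 change of -0.33 (SE 0.0758, adjusted p = 0.0745), which is not a call. Like Plcb4 and Ebf1, it stood outside the range of the pan-Purkinje genes.

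PLCβ3 and PLCβ4 stand in the middle of a pathway that leads from the synapse to calcium release. Downstream of the phospholipases, Itpr1 had a log2 change of -1.16 (SE 0.170, adjusted p = 0.0120), Inpp5a, which removes the messenger IP3, -0.89 (SE 0.0755) and Homer3, a scaffold protein that binds that channel, -0.96 (SE 0.0681), and all 3 were called lower. Upstream, the G-protein subunits Gnaq and Gna11 were at -0.18 and 0.03, and neither was called. The phospholipase genes outside the PC pair, Plcb1 and Plcb2, were at 0.36 and 0.32, and neither was called. Itpr1 and Homer3 are on the pan-Purkinje list as well.

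Paralogs of the stripe genes did not give a call. Of 16 listed, 14 were tested and 0 called in KO cerebellum by edgeR or DESeq2, with 7 at an unadjusted p under 0.05. Aldoa, the aldolase of most cells, had 1292 ± 39.5 CPM in controls and 1330 ± 20.9 in KO (log2 change 0.04, SE 0.0852). Among the glutamate transporters Slc1a3 was at -0.43 (adjusted p = 0.0843), Slc1a2 at 0.40 (adjusted p = 0.0492, under the size of a call) and Slc1a1 at 0.31, beside -0.58 for Slc1a6. Ebf3 had 14.8 ± 1.72 CPM in controls and 10.4 ± 3.31 in KO (log2 change -0.49, adjusted p = 0.332), and Ebf4 was at 0.36. Among the small heat shock genes Cryab was at 0.42, Hspb8 at 0.26, Hspb6 at -0.08, Hspb2 at 0.03 and Hspb3, with 1.02 CPM in controls, at -1.13.

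In cortex, the comparison tissue of the study, 0 of 6 stripe genes tested were called by edgeR or DESeq2, with 2 at an unadjusted p under 0.05. Of all genes 0.0% were called higher and 0.0% lower, with 1139 (5.93%) at an unadjusted p under 0.05, and DESeq2 called 45. Snx14 itself was not called there by edgeR, though both KO libraries lay below all controls. A missing call in cortex thus does not show that a gene was unchanged. KO and control did not overlap for 2 genes, Aldoc and Ebf1, against 24.5% of all genes. Aldoc had 944, 802 and 838 CPM in control cortex and 1099 and 1077 in KO cortex (log2 change 0.34, SE 0.110, adjusted p = 0.768). The 10 astrocyte genes summed to 5730, 4324 and 5430 CPM in control cortex and 6210 and 6619 in KO cortex, so KO was higher for both, with the same rank in 3 of 5 libraries, and the part of astrocytes was not tested. Log2 changes of the others were 0.31 for Plcb3, 0.12 for Slc1a6, 0.46 for Hspb1 and 0.25 for Plcb4, with overlapping groups. Without control 2 they were 0.24 for Plcb3, 0.30 for Hspb1 and 0.12 for Plcb4. Slc1a6 had only 4.996 to 7.27 CPM there, and its change turned to -0.007 without control 2 and -0.03 without KO 2. Ebf2, with 3 to 30 counts, was too low to be tested in cortex.

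Ebf1 had 5.66, 9.11 and 4.83 CPM in control cortex and 3.62 and 2.36 in KO cortex. Both KO libraries were below all controls, with a log2 change of -1.12 (SE 0.331, adjusted p = 0.754), and -0.80 (adjusted p = 0.184) without control 2. Ebf1 is a known factor of striatal projection neurons. The 9 striatum genes summed to 1905, 4234 and 1720 CPM in control cortex and 1092 and 573 in KO cortex, and 5 of 5 libraries held the same rank for Ebf1 and for that sum. The median log2 change of the striatum genes was -1.75, with 0 of 9 called by edgeR, 1 by DESeq2 (Adcy5) and 9 of 9 at an unadjusted p under 0.05. The part of striatal tissue in the Ebf1 level was not tested.

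**Figure D4:**
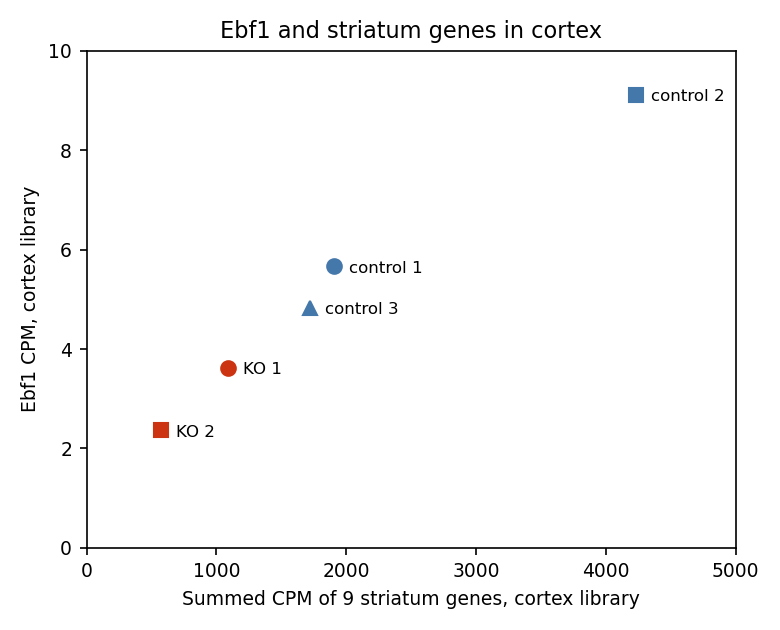
Ebf1 CPM (vertical axis) against the summed CPM of 9 striatum genes (horizontal axis) in the 5 cortex libraries, blue for controls and red for KO, each point labelled with its mouse. The 5 libraries stand in the same order on both axes, from KO 2 to control 2.

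Whether the effect of the KO differed between cerebellum and cortex was tested over all 10 libraries, with an adjusted p under 0.05 as the only threshold. Of the 7 genes 0 passed, against 0.0243% of all genes higher and 0.0776% lower, and 4 had an unadjusted p under 0.05, against 8.28% of all genes. Slc1a6 had the largest ratio of size to error, -0.68 on the log2 scale (SE 0.183, adjusted p = 0.260), followed by Plcb3 (-0.58, SE 0.184) and Plcb4 (-0.60, SE 0.200). DESeq2 called 1 of the 7, Slc1a6, with adjusted p = 0.0473. With the mouse as a block, since each mouse gave both tissues, 128 genes were called in place of 21, and 0 of the 7 genes passed (Slc1a6 adjusted p = 0.114, Plcb3 0.0725). Ebf1 differed the other way, 0.89 (SE 0.317, adjusted p = 0.425), its log2 change being more negative in cortex, and by 0.54 without control 2. Without control 2 the differences of Hspb1 and Ebf2 were 0.02 and -0.03, and without KO 1 they were 0.35 and 0.63. For Aldoc (-0.25), Hspb1 (0.17) and Ebf2 (-0.54, SE 1.16) the difference lay within 2 SE of 0, so these data do not set the tissues apart for them, nor show that they respond alike.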

How the data were processed

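RNA from cerebellum and cerebral cortex of 5 mice gave 10 libraries, grouped by their labels. Each deposited table gives, without normalization, the raw counts of read pairs for every gene. According to the methods of the study, and per the file headers, the authors trimmed the reads, aligned them with STAR to GRCm38 and counted exons with featureCounts (Subread 2.0.1), without strand although the kit keeps it, and counted a pair for each gene it overlaps. The gene length deposited beside the counts was used for CPM per kilobase. Of 81881 entries the 55536 mouse genes were used. Names came from GENCODE M21, which 55450 of them matched in identifier and position. The other 26345 held 0.160% to 0.926% of the counts of a library and were left out.

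KO was compared with control with edgeR 4.0.16 under R 4.3.3, in its quasi-likelihood test (filterByExpr with a count minimum of 10, TMM factors, genotype as the only term), and p-values were Benjamini-Hochberg adjusted over all genes tested. A call needed an adjusted p under 0.05 and an absolute log2 change over 0.5, and for the difference between tissues an adjusted p under 0.05. CPM were scaled within a tissue. DESeq2 1.42.0, RLE factors, no filter, a replicate block and leaving out each library were alternatives. The steps were tested on simulated data. Samples with the same number in control and KO share only a number, while the same mouse in both tissues is a pair (correlation of deviations 0.164 to 0.370), by the animal numbers of the labels.

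The members and all gene lists were chosen with earlier results of these data known. Named genes were the members, Snx14, the further zebrin genes, the paralogs tested, the 3 most abundant genes of other lists in control libraries, and for each member the 3 genes nearest in pattern. Other names (Hopx, Vtn, Col1a1, Bag3, Cryab, Adcy5, Gnaq, Gna11, Kcnab1 and Gm10860) were given after their values were seen. For granule cell, choroid plexus, cortical excitatory neuron and striatum genes the summed level was used. Some genes of the fixed lists are not reported here. Promoter windows were the 250 bases before each start in RefSeq, without the bases after it.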

Additional observations from a re-analysis of the deposited data

How the results depend on the processing

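Slc1a6 was called lower in cerebellum under all 9 alternatives run. Of the 7 genes, 2 were called there in the values reported, 3 with no filter on low counts (Hspb1 added), 1 with the replicate number as a block (Ebf2 lost, adjusted p = 0.0605) and 1 to 2 with a library left out. Over all genes 302 were called in cerebellum, 842 with no filter, 181 with the block and 133 to 400 with a library left out. The lowest was without control 1, and 179 and 180 were left without control 3 and without KO 1. In cortex 0 genes were called, 45 by DESeq2, 380 with no filter, 3 with the block and 0 to 98 with a library left out (98 without control 2), and of the stripe genes 0, or 1 with no filter (Ebf1). For the difference between tissues 21 genes were called, 221 by DESeq2, 599 with no filter, 128 with the mouse as a block and 0 to 198 with a mouse left out, and of the stripe genes 0, 1 by DESeq2 and 4 with no filter. Between tissues of control mice 7 stripe genes were called, or 6 to 7 with a mouse left out. The causes were not tested.

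Signs turned for Aldoc in cerebellum (-0.007 without control 2, up to 0.103 otherwise), Slc1a6 in cortex (-0.007 without control 2, -0.031 without KO 2, up to 0.261), and the difference between tissues of Hspb1 (-0.218 without control 1, -0.099 without KO 2, up to 0.648) and Ebf2 (0.631 without KO 1, down to -2.238), and none of these was a call. The replicate block changed no other call. The levels relative to the pan-Purkinje sum kept within the spread of replicates in 70 of 70 sums that left out 1 of its genes. As all 10 genes of the sum were lower in KO, leaving out 1 could move these levels little. Depth limits Hspb1 and Ebf2, with at most 315 and 231 counts in a library.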

Other observations

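The genes nearest to each stripe gene in pattern were found by the root mean square difference of log2 CPM over the 10 libraries, centred within each tissue, among 18111 genes tested in both tissues. For Aldoc these were Elovl2, a fatty acid elongase (0.0362), Tmc7 (0.0442) and Rbms2 (0.0485), against a median of 0.217 over all genes. For Plcb3 they were Gldc, the glycine decarboxylase of astrocytes (0.0474), Mfap3l (0.0558) and Gm20488 (0.0739). For Slc1a6 they were Ptprm, a receptor phosphatase (0.0574), Rab3d (0.0754) and Dmd, dystrophin (0.0781). Plcb4 was nearest to Sestd1 (0.0722), Mef2c (0.0778) and Rora, a transcription factor that PCs need (0.0805). Ebf1 was nearest to Pbx3 (0.101), Klhl13 (0.106) and Spock3 (0.146). Hspb1 lay farther from its neighbours Dab2 (0.161), Gm15851 (0.172) and Cybb (0.173) than the other genes did. Its median over all genes was larger too, 0.53, and its own root mean square was 0.505, against 0.141 for Aldoc. Ebf2 was not compared, as it was not tested in cortex. The 6 genes thus had different neighbours, and the measure rests on 10 libraries of 5 mice, so it is a description only.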
